A study of Danio rerio with 8 samples.

Results

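Neutrophil and macrophage genes were described in the livers of male zebrafish (*Danio rerio*) kept in surface water of the Hun River or in control water. The 10 genes were *mpx*, *lyz*, *npsn*, *mpeg1.1*, *mfap4*, *marco*, *lcp1*, *coro1a*, *ptprc* and *spi1b*, and their probes were found by the RefSeq accession printed for each array probe. Of these 10 members, 8 had a probe, with 20 probes between them, out of 13443 genes with a symbol. *marco*, a scavenger receptor of macrophages, and *ptprc*, the leukocyte phosphatase CD45, had no probe by this rule and were not analysed here.

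The exposed groups were wild-type fish, bought from a commercial distributor, held without water renewal in surface water from mainstream sites H1, H2, H3, H4 and H5 or from the tributaries D (Dongzhou River, which receives discharge of a petroleum and chemical area) and X (Xi River, which receives pharmaceutical and domestic discharge). The control group was labelled untreated. All fish were male, 3 months old and, per the sample descriptions, exposed for 96 h; a second label of D and X reads 97 h. In the data used here, each group was 1 Agilent one-colour array hybridised with RNA pooled from 5 livers. There are thus no replicates among these arrays, no value below has an error between fish pools, and no test was made. A difference is the quantile normalised log2 level at a site minus that in the control, and a gene was called higher or lower when the difference reached 2 fold, or 3 fold at D, with at least 1 of its probes well above background on either array. The paper describes 2 array experiments per sample and kept genes that passed 2 fold in both. For D it had 1 array and used 3 fold. The 2 fold calls here rest on 1 array per site and are less strict than the paper's. All 7 comparisons share the 1 control array.

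The share of spots well above background ranged from 56.5% to 70.8% over the arrays, and no spot was saturated. Of the 20 member probes, 17 were well above background on all 8 arrays and 0 were marked as non-uniform or outlying. Probes spotted more than once on an array gave a standard deviation of 0.35 log2 units for a difference between 2 arrays, and the scanner software's own error gave a median of 0.21 for the 17 member probes. Both cover error within arrays only. The first is pooled over the 8 arrays. Within single arrays the repeat-spot standard deviation ran from 0.136 at H1 to 0.339 at D and 0.346 in the control. Differences from the control, above all that of D, may thus have a larger spread than the pooled value. Slide 1 held H1, H2, D and control. Slide 2 held H3, H4, H5 and X and no control, so that a difference between the slides and the difference of these 4 sites from the control cannot be fully told apart. The 11 hepatocyte genes measured were well above background on every array and none was called at any site, with medians between -0.07 at H4 and 0.20 at H5 log2 units. This holds for quantile normalised values: with arrays scaled to the 75th percentile the medians were 0.46 at H3, -0.34 at H4, 1.02 at D and 0.35 at X.

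Neutrophils and macrophages are the phagocytes of innate immunity. Neutrophils circulate in blood, carry granules filled with peroxidase, lysozyme and proteases, and enter tissues on injury, while macrophages also reside in tissues, including the vascular spaces of the liver, and clear particles and dying cells. In zebrafish, *mpx* and *lyz* are widely used to mark neutrophils, *mpeg1.1* and *mfap4* to mark macrophages, and *lcp1* and *coro1a* to mark leukocytes of both kinds.

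Most members, 6 of 8, had their lowest level in the livers of fish kept in H3 water. At H3, 6 of the 8 members were called lower and 0 higher, against 12.0% lower and 9.70% higher among the 10657 genes tested, and the median of the members was -1.51 log2 units against 0.08 for all genes. The exceptions at H3 were *lyz* (0.12) and *npsn* (-0.95). Of the 4 *npsn* probes, 3 were past 2 fold at H3, and the other was not well above background there or in the control. The call of *mpx*, also a neutrophil gene, rests at H3 on 2 of its 4 probes, both not well above background there. At H1, 3 members were lower (*coro1a*, *mpeg1.1* and *lcp1*) and 1 was higher (*lyz*), against 10.4% lower and 7.40% higher among 10669 genes, with a median of -0.39 for the members and 0.05 for all genes.

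At H4, 2 members were higher (*mpx* and *spi1b*) and 0 lower, against 8.72% higher and 5.85% lower among 10869 genes, with medians of 0.17 and -0.01. At D, 1 member was higher (*mpx*) and 1 lower (*npsn*), against 4.46% higher and 6.52% lower among 11459 genes. At 2 fold the same 2 members were called at D, against 12.0% higher and 12.2% lower, and the medians were 0.21 for the members and 0.13 for all genes. At X, 1 member was lower (*npsn*) and 0 higher, against 9.90% lower and 6.23% higher among 10804 genes, yet all 8 members lay below the control, with a median of -0.66 against 0.08.

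At H2 and H5, 0 of the 8 members were called. The share of all genes called was 3.09% higher and 4.91% lower among 10406 genes at H2, and 5.31% higher and 4.63% lower among 10622 genes at H5. The medians of the members were -0.41 at H2 and -0.37 at H5, against 0.03 and 0.00 for all genes. The median at H2 was 0.050 against the median of the other 7 arrays in place of the control, and that at H5 was 0.00093 with levels centred on the slide. In all, 15 of 56 differences were called, 4 higher and 11 lower. Among all genes the share called per site ranged from 3.09% to 9.70% higher and from 4.63% to 12.0% lower. The share of higher calls among the members lay inside that range, and the share of lower calls lay above it. Of the 11 lower calls, 6 were at H3 and 3 at H1, with 0 at H2, H4 and H5. The 56 differences share 1 control array and are not separate observations. The control level of every one of the 8 members lay inside the range of the 7 sites. In bulk liver RNA, fewer cells of a type and less RNA per cell cannot be told apart.

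**Figure D1:**
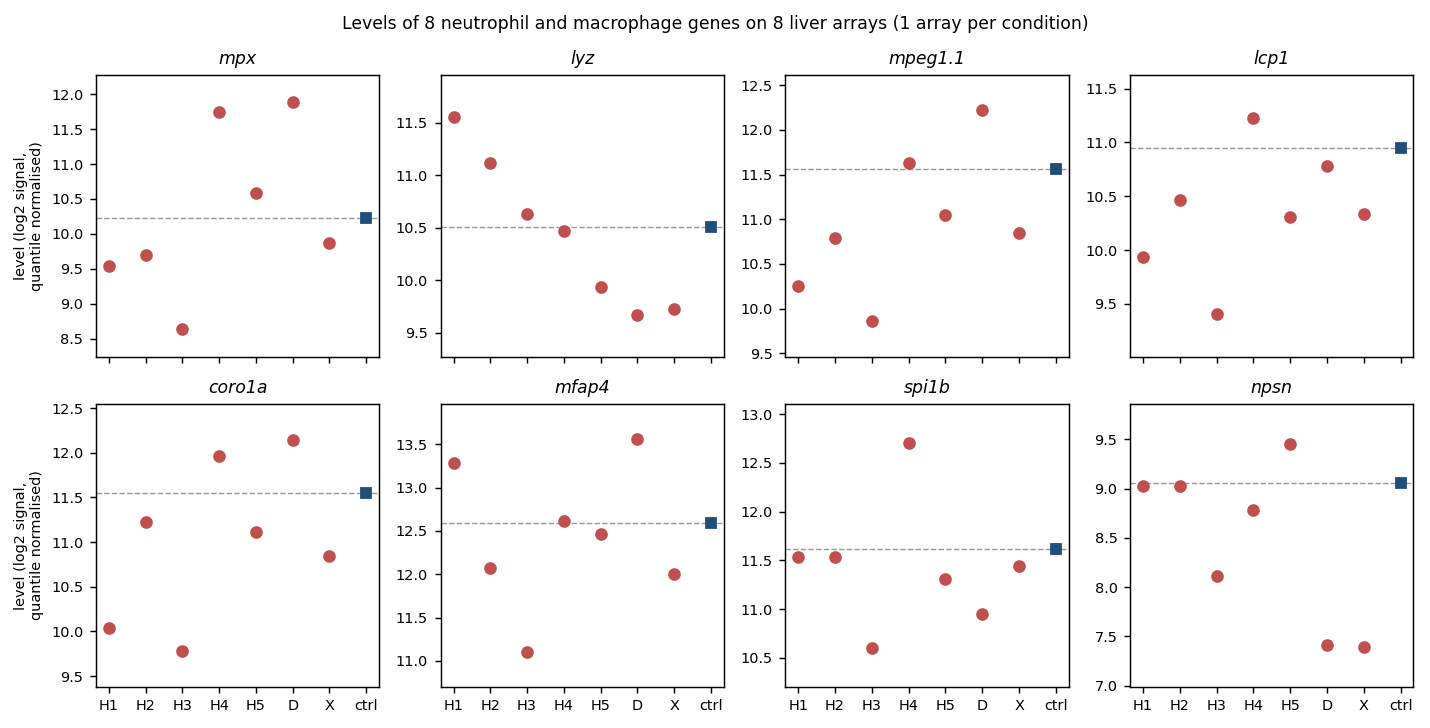
Level of each of the 8 members (y axis, quantile normalised log2 signal, scaled per gene) on the 7 site arrays (circles) and the control array (square, ctrl), 1 array per condition, with the dashed line at the control level. H3 is the lowest array for 6 of the 8 members, and *lyz* and *npsn* have their lowest arrays at D and X.

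The first 3 members are products of neutrophil granules. *mpx* encodes myeloid peroxidase, which makes hypochlorous acid from hydrogen peroxide. Its level, the mean of 4 probes, was 9.53 at H1, 9.70 at H2, 8.64 at H3, 11.75 at H4, 10.58 at H5, 11.88 at D and 9.86 at X, against 10.23 in the control. H4 and D stood above all other arrays and H3 below them. The differences were 1.65 at D (3.14 fold higher), 1.52 at H4 (2.86 fold higher) and -1.59 at H3 (3.02 fold lower), and the other 4 sites lay between -0.70 and 0.35.

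The 4 *mpx* probes did not follow one pattern. The second brightest probe read 9.07 at H1, 9.43 at H2, 7.08 at H3, 13.13 at H4, 11.56 at H5, 12.81 at D and 9.42 at X, against 10.03 in the control. The dimmest read 7.15 at H1, 6.95 at H2, 4.87 at H3, 10.7 at H4, 9.01 at H5, 10.26 at D and 7.22 at X, against 8.07 in the control. These 2 probes correlated at r = 0.99 over the 8 arrays and spanned a wide range, with H4, D and H5 on top. At H3 both were not well above background, where only bounds can be given: at least 7.71 fold lower for the second brightest and at least 2.16 fold lower for the dimmest.

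The brightest *mpx* probe read 12.88 at H1, 13.11 at H2, 13.76 at H3, 13.03 at H4, 12.90 at H5, 14.06 at D and 13.74 at X, against 13.57 in the control. Its order of arrays was a different one, with r between -0.10 and 0.29 to the other 3 probes, and by it alone the difference was 0.19 at H3 and -0.54 at H4. The remaining probe differed by 0.87 at H4, 1.14 at D and -0.43 at H3. All 4 probes were higher at D, by 0.50 to 2.78. The calls at D, H3 and H4 each rest on the 2 probes that changed most, and the call at D was lost with the brightest probe alone, with normexp background correction and with the probes well above background on all 8 arrays. With the brightest probe left out, the differences of *mpx* were -2.19 at H3 and 2.2 at H4, and with the probes well above background on all 8 arrays alone they were -0.12 and 0.16.

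**Figure D2:**
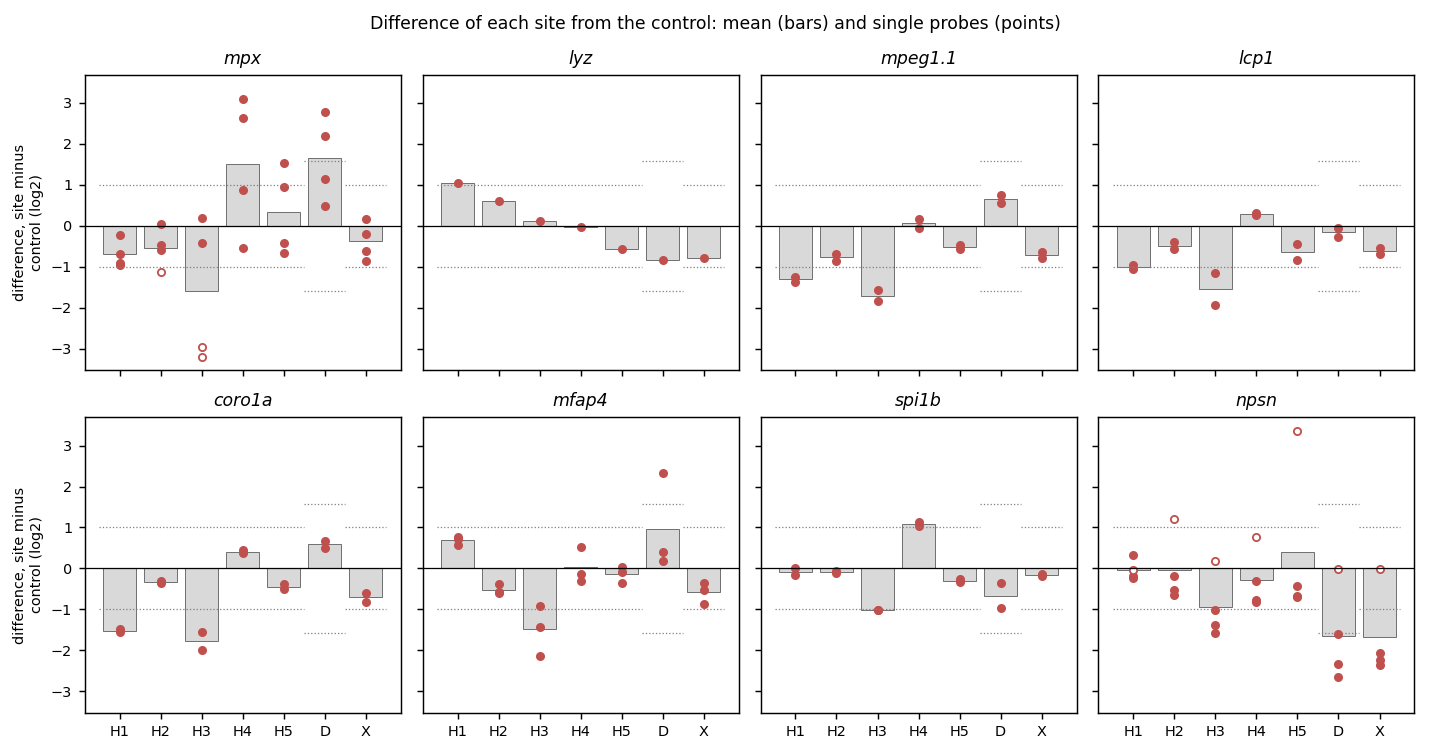
Difference of each site from the control (y axis, log2) for the 8 members at the 7 sites. Bars are the mean over the probes of a gene, points single probes, hollow where the probe was dim (not well above background) at the site or in the control, and dotted lines mark 2 fold (3 fold at D). The probes of *coro1a*, *mpeg1.1*, *lcp1* and *spi1b* lie closer together than those of *mpx*, though *lcp1* at H3 (-1.93 and -1.15) and *spi1b* at D (-0.36 and -0.96) spread. Those of *mpx* at H3 and H4 and of *npsn* at H5 lie on both sides of 0.

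*lyz* encodes lysozyme, which cleaves bacterial cell walls. Its single probe read 11.56 at H1, 11.11 at H2, 10.63 at H3, 10.47 at H4, 9.94 at H5, 9.67 at D and 9.73 at X, against 10.51 in the control. H1 was the highest array and H2 the next, H3, H4 and control differed by less than the repeat-spot spread of 0.35, and H5, X and D were lowest, with less than that spread between neighbours among them. The difference was 1.05 at H1, 2.07 fold higher, just past the threshold, and -0.84 at D. *lyz* was the member with the most distinct profile, with a negative r to *mpx*, *mpeg1.1*, *lcp1* and *coro1a* over the 8 arrays.

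*npsn* encodes nephrosin, an astacin-type metalloprotease of fish neutrophils. Its level over 4 probes was 9.03 at H1, 9.03 at H2, 8.11 at H3, 8.78 at H4, 9.46 at H5, 7.41 at D and 7.39 at X, against 9.06 in the control. Both tributaries stood below every mainstream array and the control. The differences were -1.67 at X (3.18 fold lower) and -1.65 at D (3.13 fold lower), and -0.95 at H3, below the threshold.

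The 3 brighter *npsn* probes correlated at r between 0.86 and 0.98, and each was lower at X by 2.07 to 2.35, at D by 1.60 to 2.65 and at H3 by 1.02 to 1.58. The fourth probe was well above background only at H5, with 7.79 there against 4.43 in the control, at least 2.2 fold higher. The 3 brighter probes were lower than the control at H5 (-0.42 to -0.69). The level of *npsn* above the control at H5 thus rests on the fourth probe. Without the fourth probe the difference of *npsn* at H3 was -1.32, which passes the threshold.

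The macrophage members were *mpeg1.1* and *mfap4*. *mpeg1.1* encodes perforin-2, a pore-forming protein that attacks engulfed bacteria. Its level was 10.25 at H1, 10.79 at H2, 9.86 at H3, 11.63 at H4, 11.05 at H5, 12.22 at D and 10.84 at X, against 11.56 in the control. D was highest, H4 and control were within the repeat-spot spread of each other, and H3 and H1 were lowest. *mpeg1.1* was 3.26 fold lower at H3 (-1.71) and 2.47 fold lower at H1 (-1.31), with both probes past 2 fold at each of the 2 sites, and differed by 0.66 at D.

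*mfap4*, whose product is a secreted glycoprotein made in zebrafish by macrophages, is listed in the annotation as *mfap4.1*, 1 of several related copies that its 3 probes may share. Its level was 13.28 at H1, 12.07 at H2, 11.10 at H3, 12.62 at H4, 12.46 at H5, 13.56 at D and 12.01 at X, against 12.59 in the control. Here H1 stood with D at the top, unlike for *mpeg1.1*, and H3 was again lowest. The difference was -1.49 at H3, 2.80 fold lower with all 3 probes below the control (-0.91 to -2.13), 0.69 at H1 and 0.97 at D, where the dimmest probe alone carried most of it (2.32, against 0.19 and 0.41 for the other 2).

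*lcp1* and *coro1a* mark leukocytes in general and encode proteins of the actin skeleton that phagocytes need to move and engulf. *lcp1* (L-plastin, an actin bundler) had a level of 9.94 at H1, 10.46 at H2, 9.40 at H3, 11.23 at H4, 10.31 at H5, 10.78 at D and 10.33 at X, against 10.95 in the control. Control was the second highest array, after H4, and the gene was 2.91 fold lower at H3 (-1.54) and 2.01 fold lower at H1 (-1.01), the second at the edge of the threshold. *coro1a* (coronin 1A) had a level of 10.04 at H1, 11.22 at H2, 9.78 at H3, 11.97 at H4, 11.11 at H5, 12.14 at D and 10.85 at X, against 11.55 in the control.

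H1 and H3 stood apart from the rest for *coro1a*, with H1 lying 0.81 log2 units below the next array, X. It was 3.41 fold lower at H3 (-1.77) and 2.86 fold lower at H1 (-1.51), and both of its probes were past 2 fold at each of them. At D and H4 it was higher by 0.59 and 0.41, below the threshold.

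*spi1b* encodes Pu.1, the transcription factor that directs blood precursors to the myeloid fate and stays on in mature phagocytes. Its level was 11.54 at H1, 11.53 at H2, 10.61 at H3, 12.70 at H4, 11.31 at H5, 10.95 at D and 11.45 at X, against 11.62 in the control. H4 was alone at the top, 1.09 above the control, and H3 and D were at the bottom, while H1, H2, H5 and X were within 0.30 of the control. It was 2.12 fold higher at H4 and 2.01 fold lower at H3 (-1.01), where both probes were past 2 fold by a narrow margin. At D, where *mpx*, *mpeg1.1*, *mfap4* and *coro1a* had their highest levels, *spi1b* differed by -0.66.

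Over the 8 arrays, *mpx*, *mpeg1.1*, *lcp1* and *coro1a* varied most alike. The 6 pairs among these 4 genes had r between 0.84 and 0.97, the highest being *mpeg1.1* with *coro1a*. The level of *mpx* here is the mean of its 4 probes, of which the brightest had r between -0.10 and 0.29 to the rest. With each array left out in turn the lowest r among them lay between 0.73 (without H3) and 0.88 (without control). *mfap4* had r between 0.51 and 0.68 to these 4 and *spi1b* between 0.35 and 0.71. *lyz* and *npsn* had r = 0.56 with each other, and *lyz* reached -0.56 with *mpeg1.1*. Of all 28 pairs, 20 had r above 0, with a median of 0.42. These correlations are descriptive: the points are 8 arrays that share 1 normalisation, and the array H3 lies far from the others.

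**Figure D3:**
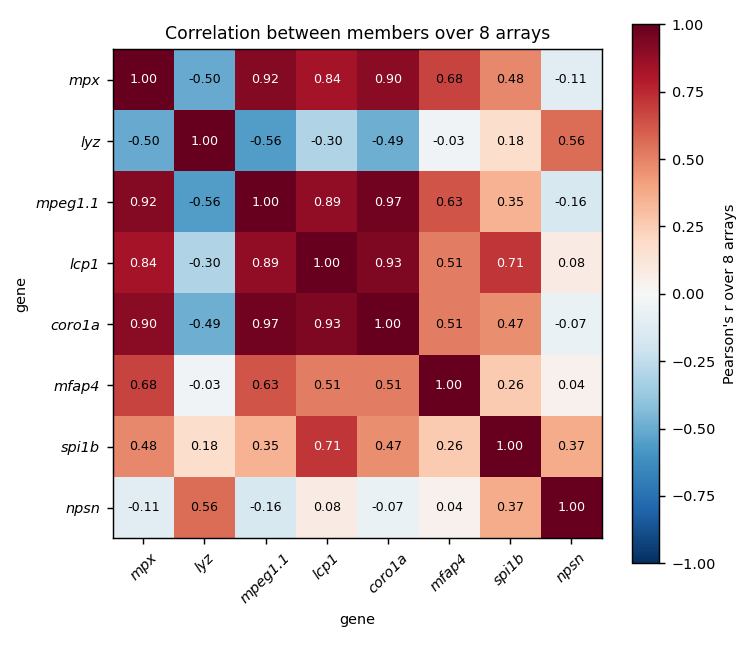
Pearson's r between the levels of each pair of the 8 members over the 8 arrays (colour and number, both axes list the genes). *mpx* (the mean of 4 probes that did not follow one pattern), *mpeg1.1*, *lcp1* and *coro1a* form a block with r of at least 0.84. *lyz* is negative with *mpx* (-0.50), *mpeg1.1* (-0.56), *lcp1* (-0.30) and *coro1a* (-0.49).

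Among 8682 genes well above background on all 8 arrays, those whose level followed the mean centred level of the members most closely were *nccrp1* (r = 0.98), *psmb12* (0.98), *arrdc1a* (0.98), *rasgef1bb* (0.97), *si:dkey-42i9.4* (0.97), *rpa2* (0.96), *tmem54a* (0.96) and *rhogb* (0.96). *nccrp1*, a receptor of fish cytotoxic cells that also stood on the list of other neutrophil genes, had a level of 12.86 at H1, 13.32 at H2, 11.56 at H3, 14.03 at H4, 13.01 at H5, 13.58 at D and 12.18 at X, against 13.29 in the control. H4 and D were above the control and H3 and X lowest. These 8 genes were picked for their r to the members among 8682 genes over 8 arrays. Their likeness to the members thus follows from the choice.

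Other genes of the same cells were counted from lists of known markers. The shares of all genes called at each site, given above, are the background for these counts as well. Of the other macrophage genes, 4 of 11 measured were lower at H3 and 0 higher, with a median of -0.96. The lower ones were *slc7a7*, an amino acid transporter that in mammals enterocytes also use (-4.07), *ccl34b.1*, a chemokine (-1.51), and, named after their values were seen, the granulin *grna.2* (-1.30) and the cathepsin *ctss2.1* (-1.07), while *ctss2.2*, a cathepsin of the lysosome, differed by 0.32. At H1, 1 of 12 was higher (*csf1ra*, a receptor of the macrophage growth factor named after its value was seen, with a probe not well above background in the control and at least 1.84 fold higher) and 1 lower (*slc7a7*, -1.89), at X 1 of 11 was lower (*slc7a7*, -2.98), and at D 1 of 12 was lower (*slc7a7*, -3.09) with a median of 0.46. By the 2 fold threshold of the other sites, 1 was also higher at D. At H4 the median was 0.61 with 0 of 11 called, and at H2 and H5 0 of 11 were called.

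Of the 11 other leukocyte genes measured, 7 were lower at H3 (median -1.36), 4 at H1 (-0.63) and 1 at X (-0.50), and 0 were higher at any site. D had 1 lower at 2 fold (*ptpn6*, -1.37) and 0 at 3 fold. *ptpn6*, the phosphatase Shp-1 that damps signals in leukocytes, was lower at H3 (-1.79) and H1 (-1.52), and *cotl1*, an actin-binding protein, at H3 (-2.14), H1 (-1.22) and X (-1.38). *fcer1gl*, a signalling adaptor of Fc receptors, was lower at H3 (-1.68) and differed by -0.63 at H1.

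The 6 subunits of the phagocyte NADPH oxidase, the enzyme that makes superoxide for killing, were measured at every site. At H3, 2 were lower, at H1 1 was lower, at H4 1 was higher, and at H2, H5 and X 0 were called. At D 0 were called at 3 fold, and 1 was higher at 2 fold. Of these, *ncf1* (-1.67 at H3) and *cybb* (1.29 at H4, with 1 of its probes not well above background in the control) were named after their values were seen. *rac2*, the small GTPase that switches the complex on, was lower at H3 (-2.30) and H1 (-1.15), whereas *ncf4* differed by no more than 0.88 at any site and *cyba* by -0.99 at H3.

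Some of the other neutrophil genes took another course at H1. There 3 of 7 measured were higher and 0 lower, with a median of 0.73, and *mmp9* and *mmp13a*, matrix-degrading metalloproteinases that neutrophils and other cells secrete on injury, differed by 3.07 and 2.41. The third, *scpp8*, was picked out after its values were seen: it was well above background at H1 and not in the control, at least 6.58 fold higher. The rest were not called at H1: *illr4* (0.73), *cebp1* (0.20, named after its value was seen), *nccrp1* (-0.43) and *cxcr4b* (-0.64). At D 3 of 7 were higher (*mmp9* by 1.63, *mmp13a* by 1.81 and, named after its value was seen, *csf3r*, the receptor of granulocyte growth factor, at least 1.67 fold higher), at H4 2 of 6 (*mmp9* by 1.2 and *mmp13a* by 1.33) and at H5 1 of 6 (*mmp9* by 1.12). At H3 and X 2 of 6 were lower, and at H2 0 were called. Both were *nccrp1* (-1.74 at H3 and -1.11 at X) and *illr4* (-1.52 and -2.19), the second named after its values were seen. *cxcr4b*, the receptor that holds neutrophils in blood-forming tissue, was not called at any of the 7 sites. It lay below the control at H1, H2, H3, H4, H5 and X (-0.59 to -0.96) and above it at D (0.37).

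Of 7 myeloid growth factors and chemoattractants, signals that recruit or expand phagocytes, 3 were higher and 1 lower at H1. *il1b*, the cytokine interleukin 1 beta, had a level of 13.08 at H1, 7.19 at H2, 7.42 at H3, 7.71 at H4, 7.78 at H5, 7.96 at D and 6.86 at X, against 7.06 in the control. H1 thus stood alone, 6.02 above the control, with the other 6 sites between -0.19 and 0.90. Of its 2 probes, 1 was not well above background in the control, and by it *il1b* was at least 63.9 fold higher at H1. *cxcl18b*, a chemokine that attracts neutrophils in zebrafish, was higher at H1 (2.31) and H3 (1.37). *csf3b*, a granulocyte growth factor picked out after its values were seen, differed by 6.23 at H1. *cxcl12a*, the ligand of *cxcr4b*, was lower at H1 (-1.26), H3 (-1.36) and D (-1.97) and differed by 1.00 at H4. At H3 1 of 7 was higher and 1 lower, at H4 and D 1 was lower, and at H2, H5 and X 0 were called. With 2 fold in place of 3 fold, 1 was also higher at D. The lower gene at H4, *csf1b*, was named after its values were seen: both of its probes were not well above background at H4, and by the one measured in the control it was at least 1.84 fold lower.

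Of the myeloid transcription factors, 1 of 8 measured was higher and 2 lower at H1, and the same counts held at H3. *cebpb*, which drives emergency production of neutrophils in mammals and is also made by hepatocytes, was the higher one (1.41 at H1 and 1.29 at H3), and *runx3* was among the lower ones (-2.11 and -2.67), with 2 of its 3 probes not well above background at these sites. At X 2 were lower, at H2 1 was lower, at H5 1 was higher, at D 1 of 9 was lower and at H4 0 were called. The count at D was 3 of 9 lower at 2 fold. *cebpa*, also a factor of hepatocytes, was lower at H2 (-1.68) and X (-1.33).

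**Figure D4:**
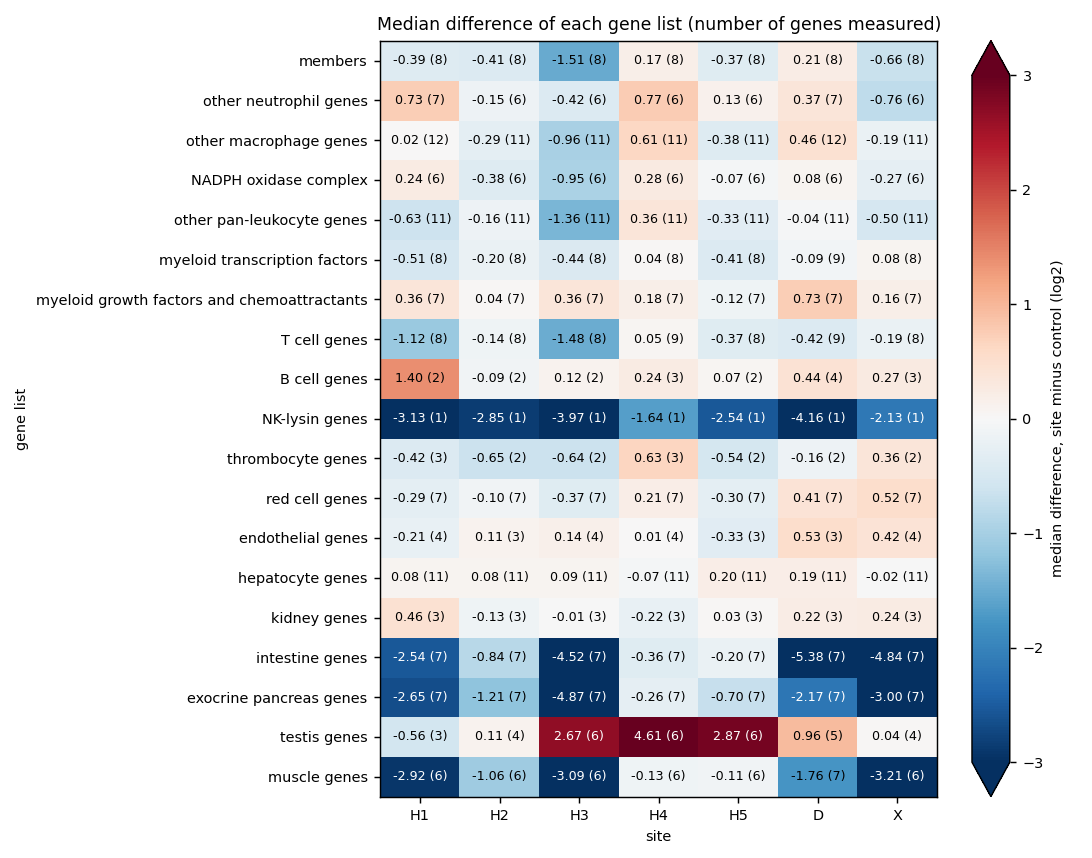
Median difference of each gene list from the control (colour and number, log2) at the 7 sites (columns), with the number of genes measured in brackets. The members are at -1.51 at H3, other leukocyte genes at -1.36 and T cell genes at -1.48. With normexp background correction these 3 medians were -1.15, -1.20 and -0.86. Hepatocyte genes lie between -0.07 and 0.20 (up to 1.02 at D when scaled to the 75th percentile). The single NK-lysin gene is not well above background at 5 of the sites.

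Markers of other blood cells moved with the members at some sites. Of the T cell genes, 6 of 8 were called lower at H3 (median -1.48), 4 of 8 at H1 (-1.12) and 3 of 9 at D (-0.42). The shares of all genes called lower there were 12.0%, 10.4% and 6.52%. At X and H5 1 of 8 was lower, against 9.90% and 4.63% of all genes. The gene at H5 was *cd8a*, named after its value was seen. Its only probe was not well above background there, and it was at least 1.48 fold lower. *zap70*, a kinase of the T cell receptor, differed by -1.78 at H3 and -1.57 at H1. At both sites 1 of its 2 probes was not well above background. With normexp the T cell medians were -0.86 at H3 and -0.63 at H1. When D was also taken at 2 fold, 4 of 9 T cell genes were lower and 1 higher there. The summed signal of the 9 T cell genes ranged from 1177 at H3 to 2700 at H4 over the sites, against 2695 in the control. Red cell genes had a summed signal between 28464 at H3 and 65974 at D, against 46664 in the control, with 1 of 7 higher and 1 lower at H1 and at H2, 1 lower at H3 and 0 called elsewhere. The red cell sum rests mostly on 1 bright gene, *hbba1*, named after its values were seen. Its level was 15.41 in the control, 14.68 at H3 and 15.92 at D. The median difference of the 7 red cell genes was highest at X (0.52, against 0.41 at D). Their mean centred level had r = 0.48 with that of the members over the 8 arrays. The summed signal of the 8 members was lowest at H3 (8499) and highest at D (29894), against 20485 in the control. In all 3 of these sums *mfap4* gave the largest part, with levels of 11.10 at H3, 13.56 at D and 12.59 in the control. Of these markers, 5 of 9 T cell and 6 of 7 red cell genes were well above background on all 8 arrays. The part of blood in the members' differences was not tested.

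Markers of organs that border the liver also moved. Exocrine pancreas genes were lower at H3 (7 of 7, median -4.87), X (7, -3.0), H1 (7, -2.65), D (4, -2.17), H2 (4, -1.21) and H5 (2, -0.70), and 0 of 7 were called at H4 (-0.26). The 4 at D were counted at 3 fold, and all 7 pancreas genes were lower there at 2 fold. Their summed signal ranged from 74061 at H3 to 596604 at H4, against 707550 in the control, and all 7 were well above background on every array. Their mean centred level had r = 0.84 with that of the members over the 8 arrays, and 0.69 without H3. At D the median was -2.17 for the pancreas genes and 0.21 for the members. There *mpx*, *mpeg1.1*, *mfap4* and *coro1a* lay above the control, and *lcp1* (-0.16), *spi1b* (-0.66), *lyz* (-0.84) and *npsn* (-1.65) lay below it.

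Intestine genes were lower at H1 (7 of 7), X (7), H3 (6), D (6), H2 (2), H4 (1) and H5 (1), with a summed signal between 2074 at D and 119811 at H5, against 113280 in the control, and r = 0.56 with the members. Muscle genes were lower at H1, H3 and X (5 of 6 each), D (4 of 7), H2 (3 of 6), H4 and H5 (1 of 6 each) and higher at H3 and H5 (1 of 6 each), with sums between 611 at X and 8250 at H5, against 4729 in the control. By 2 fold, 5 of 7 muscle genes were lower at D. Testis genes were higher at H4 (5 of 6), H3 and H5 (4 of 6 each), D (2 of 5) and H2 (1 of 4), and lower at H1 (1 of 3), with sums between 566 at H1 and 18946 at H4, against 692 in the control. Of the markers measured, 4 of 7 intestine, 3 of 7 muscle and 2 of 6 testis genes were well above background on all 8 arrays. The part of these tissues in the members' differences was not tested.

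**Figure D5:**
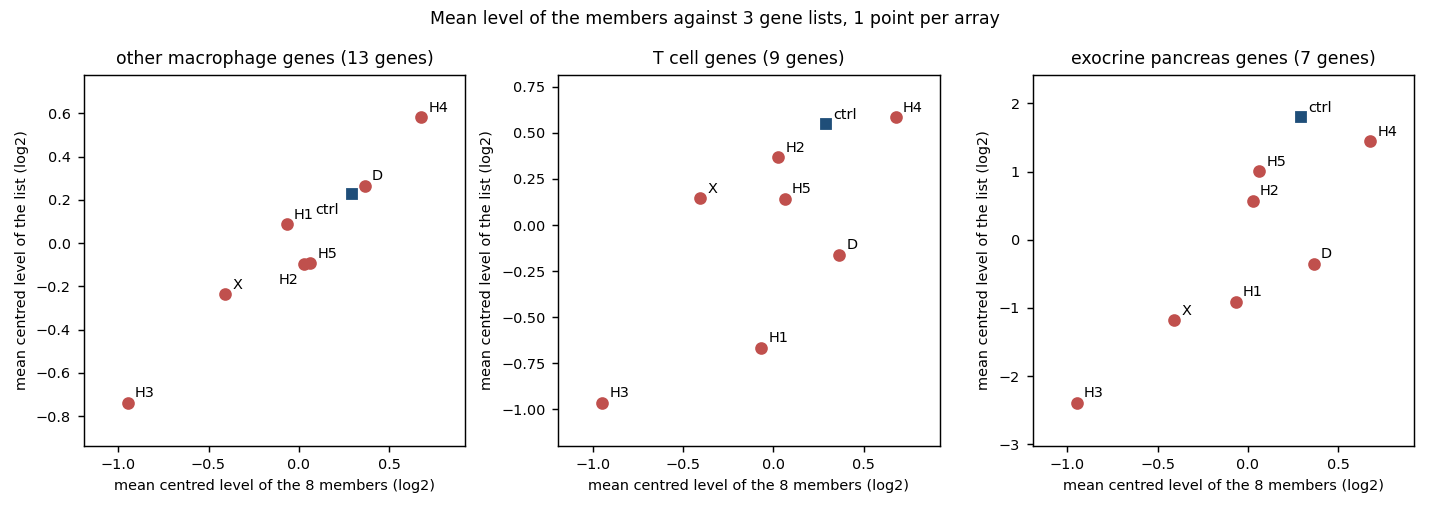
Mean centred level of other macrophage genes, T cell genes and exocrine pancreas genes (y axes, log2) against the mean centred level of the 8 members (x axis, log2), 1 point per array, sites as circles and control (ctrl) as a square. The r over the 8 arrays is 0.97 for other macrophage genes, 0.72 for T cell genes and 0.84 for exocrine pancreas genes. H3 is the lowest array in each panel. Not drawn are other neutrophil genes, with r = 0.45, and other leukocyte genes, with r = 0.96.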

How the data were processed

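The authors pooled liver RNA of 5 fish per group, labelled it with Cy3, hybridised it to Agilent zebrafish arrays and read spots with Feature Extraction (10.7 per the labels, 11.5.1.1 per the file headers). The deposited files hold the fluorescence intensity of each spot after background subtraction (the processed signal), with the median spot and local background intensity. The authors also deposited log2 values, which follow the log2 processed signal minus an offset per array near its 75th percentile, while the methods name quantile normalisation; these were used as an alternative only.

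Processed signals were taken as log2 and quantile normalised over the 8 arrays (Python 3.11.15, numpy 2.4.6, pandas 2.3.3), without control spots. Spots of a probe and probes of a gene well above background on at least 1 array were averaged, and a comparison left out probes marked on the site or control array in 50% or more of their spots. Because probes hybridise unequally, no gene's level was set against another's. For a probe not well above background on 1 array of a pair, a fold is given as a bound. It is taken against the lowest signal well above background on that array, or the probe's own level there if higher. The fold step was tested on simulated data.

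Of 43603 probes, 26094 were given a symbol by accession through a RefSeq table used for names only; 8262 Ensembl probes were not named. The members and the 18 hand-written marker lists were chosen with earlier results of these data known. Besides the members, named genes are up to 3 per list, those with the largest median difference over the sites among genes well above background on all 8 arrays, and the 8 genes most alike the members. The alternatives were 12 planned settings and 1 added after seeing the data, with normexp in limma 3.58.1 (R 4.3.3, offset 50). Probe sequences were not used here.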

Additional observations from a re-analysis of the deposited data

Results flagged for a closer look

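*mpx* was higher at D (1.65 log2 units) and lower at H3 (-1.59), a difference between the 2 sites of 3.25, and *spi1b* was higher at H4 (1.09) and lower at H3 (-1.01), a difference of 2.1. Both genes stand here because they passed the fold threshold in opposite directions at different sites against the same control array. With 1 array per site the difference between the sites was not tested. The 2 probes of *spi1b* were past 2 fold at both sites, with 1.05 and 1.13 at H4, whereas those of *mpx* ranged from -3.19 to 0.19 at H3.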

How the results depend on the processing

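No paired analysis was possible because each group has 1 array. Of the 15 called differences, 5 kept their call under all 11 settings that recompute single genes (*coro1a* at H1 and H3, *lcp1* at H3, *mpeg1.1* at H3, *npsn* at X). The count kept was 13 with 75th percentile scaling, 13 with the authors' log2 values, 13 with levels centred on the slide, 12 with probes well above background on all 8 arrays, 11 with the brightest probe per gene, 11 against the median of the other 7 arrays, 9 with normexp, and 15 in each of the rest. Not all of these settings could change a call. No member probe was marked and each was well above background on at least 1 array. Keeping marked probes or dropping the filter on dim probes thus left the members as they were. Centring on the slide cannot move H1, H2 or D, which share a slide with the control. The authors' values nearly repeat the 75th percentile scaling. By its brightest probe *mpx* turned to 0.19 at H3 and -0.54 at H4. The count of members called at H1 (4) was 2 with normexp, 2 against the other 7 arrays and 0 at 3 fold. At H3 (6) it was 4 with normexp, 4 centred on the slide, 5 with the brightest probe, 5 against the other 7 arrays and 3 at 3 fold. Without the brightest *mpx* probe and the fourth *npsn* probe it was 7. At H4 (2) it was 1 with 75th percentile scaling, the authors' values, probes well above background on all 8 arrays or the brightest probe, and 0 at 3 fold. At D (2) it was 1 under those 4 settings and against the other 7 arrays, and 0 with normexp. The share of all genes called under these settings is not given, so the changed counts have no background beside them. The median at H3 (-1.51) was -1.15 with normexp, -1.05 centred on the slide and -1.16 against the other 7 arrays. Centred on the slide it was 0.62 at H4, 0.00093 at H5 and -0.30 at X, and against the other 7 arrays 0.050 at H2, 0.81 at H4 and 0.71 at D. The cause of these shifts was not tested. The 75th percentile scaling moved the median of all genes to 0.33 at D, against 0.13 in the values reported. One array per group leaves the spread between fish pools unmeasured.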

Other observations

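A few blood and organ genes outside the comparisons above stood out by value. *nkl.4*, an NK-lysin gene of cytotoxic lymphocytes with 1 probe, was lower than the control at all 7 sites. Its probe was well above background in the control (9.15) and not at 5 sites, where it was at least 5.48 fold lower at H1, 3.62 at H2, 4.56 at H3, 4.84 at H5 and 11.3 at D, while the difference was -1.64 at H4 and -2.13 at X. As the control is a single array, its own level sets all 7 of these values. B cell genes were sparse, with 2 to 4 of 9 measured: *cd22*, a receptor of B cells, differed by 2.67 at H1 and by -0.37 to 0.28 at the other 6 sites, and *pax5* was called higher at H4 and X, although its probe was not well above background in the control and the bounds were at least 1.03 fold and at least 1.19 fold. At D *pax5* differed by 1.44 (at least 1.38 fold), which is below the 3 fold threshold used there. By 2 fold, 2 of 4 B cell genes were higher at D. Of the thrombocyte genes *mpl*, the thrombopoietin receptor, was at least 7.98 fold higher at H1 and at least 6.03 fold higher at H4, and 0 were called elsewhere. D had 1 of 2 thrombocyte genes lower at 2 fold. *pax5* and *mpl* were named after their values were seen. Endothelial genes had 0 calls at all 7 sites. Those comparisons left out a marked probe of *stab1*, well above background in the control (9.04) and not at the 7 sites. By itself that probe was lower at all 7 sites, from at least 3.37 fold at H2 to at least 10.5 fold at D. Kidney genes had 1 of 3 called higher at H3 (*slc12a3*, 1.01) and 0 elsewhere. That call leaves out a probe of *slc12a3* marked on the control array, which by itself was at least 3.14 fold lower at H3.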
